A study of Mus musculus with 27 samples.

Results

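The 10 genes described here handle cholesterol in the gut wall and were taken by symbol out of the 52550 genes of the count table. They are the LXR receptor genes Nr1h3 (LXR alpha) and Nr1h2 (LXR beta), the efflux pump genes Abca1, Abcg1, Abcg5 and Abcg8, the uptake genes Npc1l1 and Scarb1, and the esterification genes Soat1 and Soat2. Their levels were measured by poly-A RNA sequencing in 27 bulk libraries of colon, cecum and ileum from male C57BL/6 mice, 6 weeks old before a 7-day acclimatization. For 60 days the mice ate standard feed into which arsenic had been mixed to 30 µg/g (sodium arsenite 72.7%, sodium DMA 19.0%, sodium arsenate 7.3% and sodium MMA 1.0% of the arsenic), or the same standard feed alone. The groups were colon on arsenic (n = 4) and control feed (n = 5), cecum on arsenic (n = 5) and control feed (n = 4), and ileum on arsenic (n = 5) and control feed (n = 4). The study kept 10 mice on each diet, and the labels do not say which libraries of different regions came from one mouse. All 10 genes had an entry in the table, and the lowest count in any library was 0 for Abcg8 and 1367 for Nr1h2.

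Cells sense surplus cholesterol through oxysterols, which bind the LXR receptors. LXR sits on DNA with its partner RXR and switches on the pumps Abca1, Abcg1, Abcg5 and Abcg8. In enterocytes, NPC1L1 carries cholesterol from the gut lumen into the cell, and the ABCG5 and ABCG8 proteins pair up to pump sterols back into the lumen. Cholesterol that stays is esterified, in the small intestine largely by SOAT2, for packing into lipoproteins, or leaves across the basal membrane through ABCA1 to form HDL. SCARB1 is a receptor for HDL, SOAT1 esterifies cholesterol in most cell types including macrophages, and ABCG1 passes cholesterol to HDL.

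Each library held between 15717600 and 18208518 reads assigned to genes, and all levels below are counts scaled for sequencing depth with TMM over the 27 libraries (CPM), or CPM per kilobase of exon where genes are set against each other. The tissue labels were checked against marker genes. The summed level of 8 large intestine markers was 9693 to 15735 CPM in colon libraries and 31517 to 46678 CPM in cecum libraries, against 575 to 938 CPM in ileum libraries. The sum of 8 ileal absorptive markers was 659 to 1157 CPM in colon libraries and 825 to 1234 CPM in cecum libraries, against 3730 to 11002 CPM in ileum libraries. Ileum arsenic libraries 14 and 15 had only 6.13 and 1.33 CPM of Fabp6, the ileal bile acid binding protein, against 219 to 4272 CPM in the control ileum. In bulk tissue, fewer cells of a type and less RNA per cell cannot be told apart.

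The regions were compared first, on control feed, because these genes divide by gut segment. The uptake gene Npc1l1, the sterol pump pair Abcg5 and Abcg8, and the esterification gene Soat2 were nearly restricted to the ileum among these regions. Npc1l1 had 3.07, 6.09, 0.0566, 14.3 and 1.78 CPM in control colon libraries 1 to 5, and 1.15, 0.838, 3.81 and 0.444 CPM in control cecum libraries 1, 2, 4 and 5, against 1166, 852, 973 and 924 CPM in control ileum libraries 1, 2, 3 and 5. Neither the colon nor the cecum came near the ileum in any library. The log2 difference of Npc1l1 was -7.60 ± 0.91 (SE) for colon over ileum (edgeR quasi-likelihood test with Benjamini-Hochberg adjustment, adjusted p = 3.04e-05) and -9.32 ± 1.11 for cecum over ileum (edgeR adjusted p = 2.4e-05). Abcg5 averaged 6.78 ± 4.25 CPM in control colon (SD, n = 5) and 0.409 ± 0.445 CPM in control cecum (n = 4), against 333.2 ± 39.3 CPM in control ileum (n = 4). Abcg8 averaged 3.70 ± 1.51 CPM in control colon and 0.240 ± 0.311 CPM in control cecum, against 217.8 ± 16.9 CPM in control ileum. Soat2 averaged 2.19 ± 1.24 CPM in control colon and 1.42 ± 0.43 CPM in control cecum, against 257.6 ± 22.1 CPM in control ileum. For each of these 3 genes both large intestinal regions were lower than the ileum without overlap, by log2 differences of -5.62 to -9.85.

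**Figure D1:**
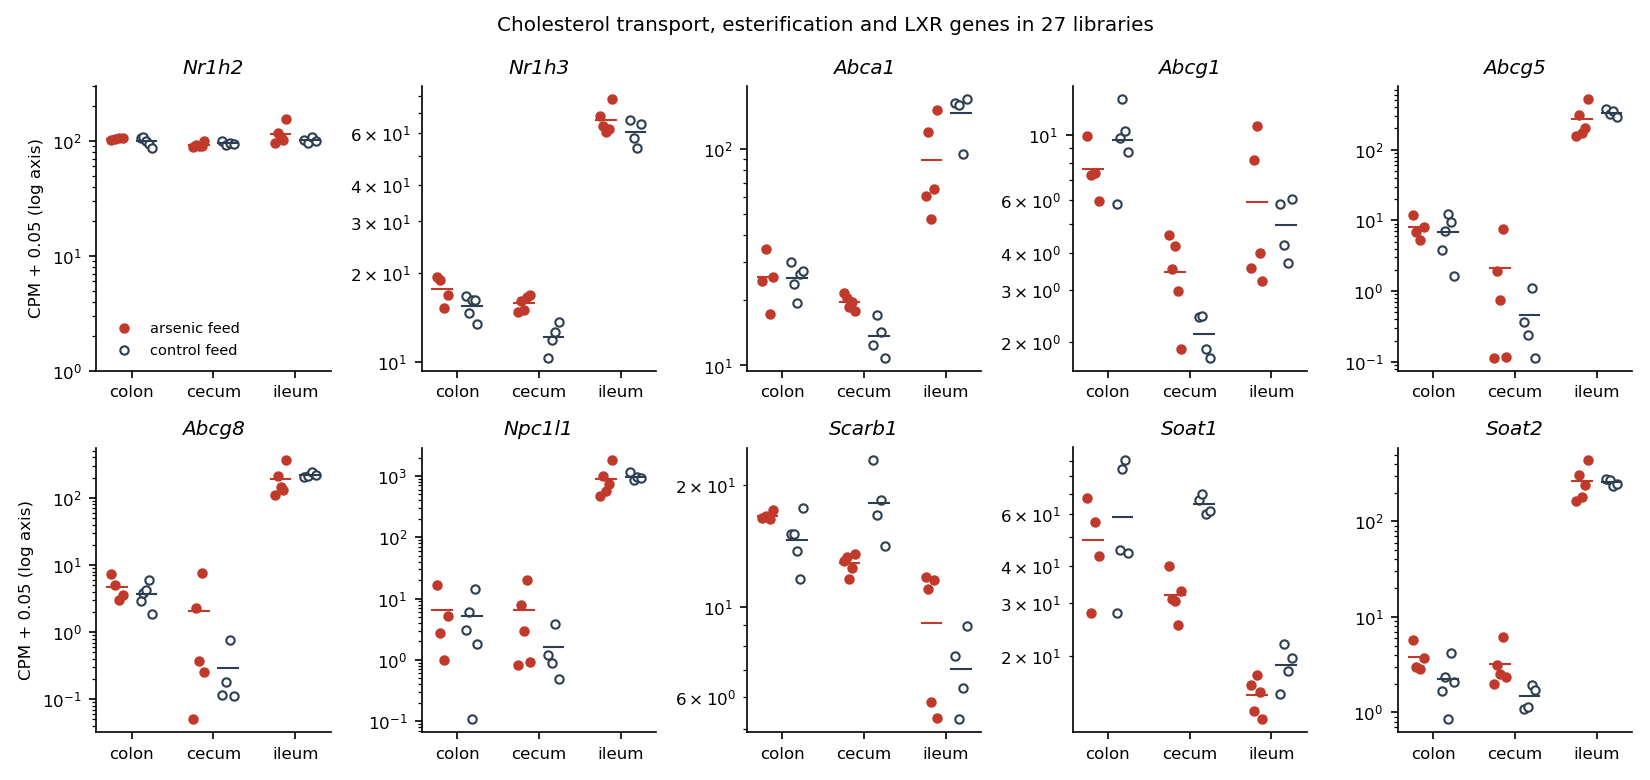
Level of each gene in every library (CPM + 0.05, log axis) by region, with arsenic feed as filled red points left of control feed as open dark points. Lines mark group means; Npc1l1, Abcg5, Abcg8 and Soat2 sit more than an order of magnitude higher in the ileum than in the colon and cecum, while Nr1h2 lies between 87.0 and 153.4 CPM throughout.

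Abcg5 and Abcg8 are transcribed away from each other, and the stretch between their starts is shown because these pump genes ran together across libraries in each region (r = 0.87 to 0.95). Abcg5 ran as closely with Npc1l1, which lies on another chromosome, in the ileum (r = 0.97) and cecum (0.98). In the colon r was 0.12, a value that includes control library 3 with 215 reads of Abcg5 and 1 of Npc1l1. The colon r without that library was not computed. In the cecum the r values rest on few reads, 1 to 126 of Abcg5 per library. The 109 bases (RefSeq, GRCm38.p6, chr17:84683012-84683120, plus strand, read toward Abcg8) held 2 matches to the GATA motif AGATAA, searched on both strands and found as its reverse complement TTATCT, in capitals, which begin 93 and 63 bases before the Abcg8 start.
Abcg8 and Abcg5: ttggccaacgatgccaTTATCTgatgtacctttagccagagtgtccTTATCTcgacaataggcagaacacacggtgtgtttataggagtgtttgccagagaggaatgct
At least 2 such matches occurred in 0.186% of the 32851 upstream windows of the same length. Gata4, the intestinal GATA factor of the proximal gut, averaged 1.07 ± 0.68 CPM in control colon and 0.308 ± 0.229 CPM in control cecum, against 61.8 ± 9.8 CPM in control ileum. Gata6 was less divided, at 34.1 ± 3.1 CPM in control colon and 32.6 ± 4.4 CPM in control cecum, against 61.2 ± 2.6 CPM in control ileum. A match to a motif describes the sequence only.

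The LXR receptors differed from each other in their regional pattern. Nr1h3 averaged 15.4 ± 1.4 CPM in control colon and 12.1 ± 1.4 CPM in control cecum, against 60.4 ± 6.0 CPM in control ileum, with log2 differences of -1.97 ± 0.10 for colon over ileum (edgeR adjusted p = 2.93e-09) and -2.33 ± 0.11 for cecum over ileum (edgeR adjusted p = 9.83e-10). Nr1h2 averaged 98.9 ± 8.3 CPM in control colon, 95.6 ± 3.2 CPM in control cecum and 101.5 ± 5.7 CPM in control ileum, and no regional difference passed the test, although with upper-quartile scaling cecum over ileum (-0.26, edgeR adjusted p = 0.00952) and colon over cecum (0.19, edgeR adjusted p = 0.048) did. Per kilobase of exon, Nr1h3 stood at 0.181 to 0.228 of Nr1h2 in control colon libraries and 0.137 to 0.193 in control cecum libraries, against 0.655 to 0.865 in control ileum libraries.

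Of the remaining genes, Abca1 was highest in the ileum and Abcg1 in the colon, whereas Scarb1 and Soat1 were lowest in the ileum. Abca1 had 30.0, 23.7, 19.5, 26.4 and 27.2 CPM in control colon libraries 1 to 5, and 12.4, 17.0, 14.2 and 10.8 CPM in control cecum libraries 1, 2, 4 and 5, against 163.2, 160.4, 95.2 and 170.2 CPM in control ileum libraries 1, 2, 3 and 5. Its level was lower in both large intestinal regions, with log2 differences of -2.54 ± 0.18 for colon over ileum (edgeR adjusted p = 7.12e-08) and -3.45 ± 0.21 for cecum over ileum (edgeR adjusted p = 1.01e-08). Abcg1 was the pump with its highest level in the colon, at 9.51 ± 2.67 CPM in control colon, against 2.08 ± 0.35 CPM in control cecum and 4.90 ± 1.17 CPM in control ileum. Its log2 difference was 2.20 ± 0.25 for colon over cecum (edgeR adjusted p = 1.33e-05) and 0.95 ± 0.23 for colon over ileum (edgeR adjusted p = 0.00285), and the colon and ileum values overlapped. Scarb1 averaged 14.6 ± 2.1 CPM in control colon and 18.1 ± 3.7 CPM in control cecum, against 6.97 ± 1.6 CPM in control ileum. Soat1 averaged 58.4 ± 27.5 CPM in control colon and 64.3 ± 4.7 CPM in control cecum, against 18.6 ± 3.0 CPM in control ileum. Both were higher in each large intestinal region than in the ileum without overlap, by log2 differences of 1.06 to 1.78.

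Across the regional comparisons, 9 of 10 genes passed the test for colon over ileum (3 higher and 6 lower, where 52.2% of all 16882 genes tested were called, 27.7% as higher and 24.5% as lower). For cecum over ileum, 9 of 10 passed (2 higher and 7 lower, against 54.9% of all genes, 28.4% as higher and 26.5% as lower). Groups did not overlap for 8 genes between colon and ileum (39.4% of all genes) and for 9 between cecum and ileum (54.5%). For colon over cecum, 5 of 10 passed, each of them higher in the colon (Nr1h3, Abca1, Abcg1, Abcg5 and Abcg8), where 47.2% of all genes were called in either direction and 21.9% as higher. The Nr1h3 call between colon and cecum was lost without control cecum library 1 (log2 difference 0.28, edgeR adjusted p = 0.0537). The calls for Npc1l1 (2.05, edgeR adjusted p = 0.0391) and Soat2 (0.86, edgeR adjusted p = 0.0279) were gained without control colon library 3. From high to low, the order of levels was ileum, colon, cecum for Nr1h3, Abca1, Abcg5 and Abcg8, with every neighbouring pair past the test, and colon, ileum, cecum for Abcg1, likewise (cecum over ileum -1.25 ± 0.26, edgeR adjusted p = 0.000883). For Scarb1 (-0.30 ± 0.17, edgeR adjusted p = 0.161) and Soat1 (-0.13 ± 0.28, edgeR adjusted p = 0.73) the colon and cecum, both above the ileum, did not differ beyond their spread. For Npc1l1 and Soat2 the colon and cecum did not differ beyond their spread, with log2 differences of 1.72 ± 0.92 (edgeR adjusted p = 0.145) and 0.64 ± 0.37 (edgeR adjusted p = 0.177) for colon over cecum.

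The paired roles of these genes were followed as ratios of CPM per kilobase. Soat2 exceeded Soat1 in every ileum library and lay below it in every colon and all but 1 cecum library. The ratio of Soat2 to Soat1 was 0.0414 to 0.261 in control colon and 0.0680 to 0.142 in control cecum, against 55.0 to 83.1 in control ileum. In the arsenic groups the same ratio was 0.222 to 0.463 in the colon, 0.213 to 1.07 in the cecum and 45.0 to 158 in the ileum. The arsenic and control ranges of the cecum did not overlap. That follows from the single genes, since every arsenic cecum library had less Soat1 and more Soat2 than every control cecum library. Npc1l1 and Abcg5, which move cholesterol in opposite directions across the brush border, kept a narrow ratio in the ileum, 1.81 to 2.25 on arsenic and 1.62 to 1.96 on control feed. In the cecum the ratio was 1.66 to 7.89 on arsenic and 2.19 to 4.25 on control feed, from few reads. Abcg5 had 1 read in arsenic cecum libraries 11 and 15 (ratios 7.28 and 7.89) and in control cecum library 5 (4.25). In the colon it ranged from 0.109 to 0.842 on arsenic and from 0.00282 to 0.927 on control feed.

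**Figure D2:**
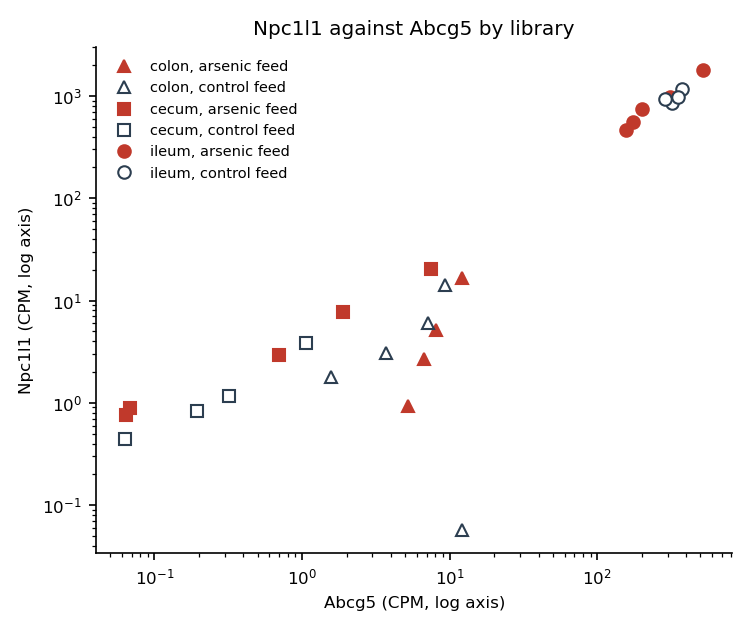
Npc1l1 against Abcg5 in each of the 27 libraries (CPM, both axes log), with circles for ileum, squares for cecum and triangles for colon, filled red on arsenic feed and open on control feed. Npc1l1 rises with Abcg5 over the ileum libraries and over the cecum libraries (r = 0.97 and 0.98), whereas control colon library 3 has 12.2 CPM of Abcg5 and 0.0566 CPM of Npc1l1.

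Control colon library 3 held 215 reads of Abcg5 and 73 of Abcg8 but 1 read of Npc1l1. Its level of Sis, the sucrase-isomaltase of the small intestinal brush border, was 0.623 CPM, against 7.44 to 52.4 CPM in the arsenic colon libraries and 14.6 to 66.1 CPM in the other control colon libraries. Over the 9 colon libraries the Pearson r of log2 CPM was 0.87 between Abcg5 and Abcg8, 0.12 between Abcg5 and Npc1l1, and 0.86 between Npc1l1 and Soat2. The value of 0.12 includes control colon library 3, and r without that library was not computed. Over the 9 ileum libraries the r between Abcg5 and Npc1l1 was 0.97. These values are descriptions over libraries that share both diets and their own depth and scaling.

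In the cecum on arsenic feed, Soat1 and Scarb1 fell, and Nr1h3, Abca1, Abcg1 and Soat2 rose. Thus 6 of the 9 genes that could be tested passed, 4 higher and 2 lower, where 25.2% of the 15590 genes tested were called, 11.3% as higher and 13.9% as lower. Abcg8 did not pass the filter on low counts there, and 5 of the 10 genes had groups that did not overlap, against 22.2% of all genes tested. The median log2 change of the 9 genes was 0.57, beside 0.02 over all genes. With the spread estimated from all 27 libraries instead, 2 genes kept their call, and the adjusted p became 0.222 for Abca1, 0.185 for Abcg1, 0.0983 for Scarb1 and 0.0855 for Soat2.

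Soat1, the esterification enzyme of most cell types, had the smallest adjusted p of the 10 genes. Its level was 39.9, 31.0, 30.5, 25.2 and 32.8 CPM in arsenic cecum libraries 11 to 15, against 66.7, 69.6, 59.5 and 61.4 CPM in control cecum libraries 1, 2, 4 and 5. Every arsenic library lay below every control library. The log2 change was -0.97 ± 0.11 (edgeR adjusted p = 6.98e-05), and the call was kept in each of the 16 alternative fits. Soat2, its small intestinal counterpart, went the other way at a far lower level, with 1.92, 3.08, 2.47, 6.12 and 2.33 CPM in arsenic cecum libraries 11 to 15, against 1.03, 1.10, 1.90 and 1.65 CPM in control cecum libraries 1, 2, 4 and 5. The groups touched closely without overlapping, and the log2 change was 1.21 ± 0.34 (edgeR adjusted p = 0.0204). The call was lost in 4 of 16 fits, among them those without control library 1 (adjusted p = 0.0678) and without control library 2 (adjusted p = 0.066).

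Nr1h3, the LXR with the narrower tissue range, rose to 15.8 ± 1.0 CPM in arsenic cecum (n = 5), against 12.1 ± 1.4 CPM in control cecum (n = 4). Single libraries had 14.7, 16.1, 14.9, 16.6 and 16.8 CPM on arsenic, against 10.3, 11.8, 12.6 and 13.6 CPM on control feed, with no overlap. The log2 change was 0.43 ± 0.10 (edgeR adjusted p = 0.00737). The other LXR receptor gene, Nr1h2, stood at 92.2 ± 4.5 CPM in arsenic cecum and 95.6 ± 3.2 CPM in control cecum, a log2 change of -0.01 ± 0.06 (edgeR adjusted p = 0.873) whose sign depended on the scaling (0.04 with upper-quartile scaling).

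Of the pumps, Abca1 had 21.5, 20.4, 18.6, 19.7 and 17.8 CPM in arsenic cecum libraries 11 to 15, against 12.4, 17.0, 14.2 and 10.8 CPM in control cecum libraries 1, 2, 4 and 5. The arsenic libraries were all higher, with a log2 change of 0.57 ± 0.12 (edgeR adjusted p = 0.00357). Abcg1 had 4.54, 3.46, 4.17, 2.91 and 1.85 CPM on arsenic, against 2.37, 2.38, 1.83 and 1.71 CPM on control feed. These groups overlapped through arsenic library 15, and the log2 change of 0.75 ± 0.26 (edgeR adjusted p = 0.0439) lost its call in 9 of 16 fits, including those without arsenic library 11, 12 or 13 or any single control library (adjusted p = 0.0568 to 0.117). The HDL receptor gene Scarb1 had 12.97, 13.2, 11.7, 12.5 and 13.5 CPM on arsenic, against 23.0, 16.8, 18.4 and 14.1 CPM on control feed. It was lower in every arsenic library, with a log2 change of -0.46 ± 0.12 (edgeR adjusted p = 0.012).

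**Figure D3:**
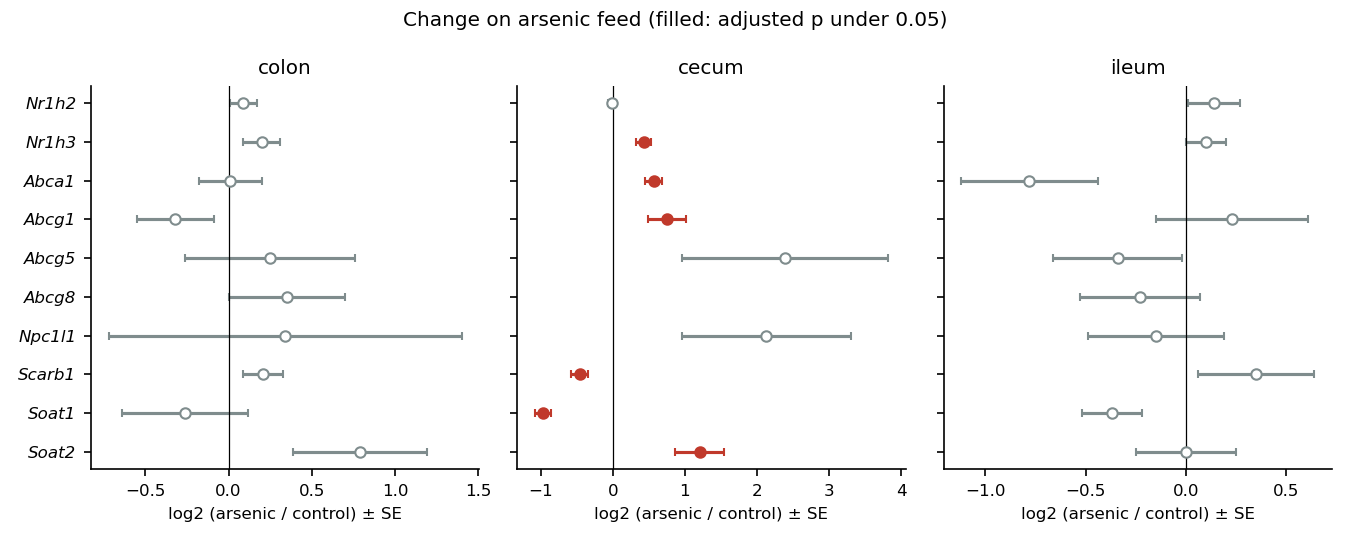
Log2 change on arsenic over control feed (point) with its SE (bar) for each gene in colon, cecum and ileum; each panel has its own horizontal scale. Filled red points passed the test, which were 6 in the cecum and none in the colon or ileum; Abcg8 was not tested in the cecum.

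The brush border transporters had large but unsteady changes in the cecum. Npc1l1 had 0.767, 7.68, 2.91, 20.4 and 0.889 CPM in arsenic cecum libraries 11 to 15, against 1.15, 0.838, 3.81 and 0.444 CPM in control cecum libraries 1, 2, 4 and 5. Abcg5 had 0.0639, 1.89, 0.696, 7.48 and 0.0684 CPM on arsenic, against 0.320, 0.193, 1.06 and 0.0634 CPM on control feed. Abcg8 had 0, 2.27, 0.316, 7.43 and 0.205 CPM on arsenic, against 0.0641, 0.129, 0.705 and 0.0634 CPM on control feed. For Npc1l1 and Abcg5 libraries 14 and 12 led the arsenic group and library 4 the control group, and arsenic libraries 11 and 15 lay within the control range. The log2 change was 2.13 ± 1.17 for Npc1l1 (edgeR adjusted p = 0.228) and 2.39 ± 1.43 for Abcg5 (edgeR adjusted p = 0.264).

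Transcripts of the small intestine moved with these values. Sis was 0.767, 10.3, 5.12, 57.5 and 0.547 CPM in arsenic cecum libraries 11 to 15, against 0.448, 0.129, 9.03 and 0.190 CPM in control cecum libraries 1, 2, 4 and 5. Fabp6 was 0.319, 20.9, 10.6, 70.0 and 0.205 CPM on arsenic, against 0.128, 0.966, 8.25 and 0.952 CPM on control feed. The sum of the 8 ileal absorptive markers was 926 to 1234 CPM in arsenic cecum and 825 to 1088 CPM in control cecum, with 3 of the 8 under 1 CPM on average in each group and none of the 5 tested called. Without arsenic libraries 12 and 14 and control library 4, the calls for Soat1 and Abca1 were kept, whereas the adjusted p became 0.0585 for Nr1h3, 0.0836 for Scarb1, 0.072 for Soat2 (log2 change 0.87) and 0.14 for Abcg1. Those libraries were chosen after seeing the data and had the highest Soat2 of their groups, and leaving them out also makes the groups smaller. Over all 16 alternative fits the log2 change was 0.35 to 0.50 for Nr1h3, -0.56 to -0.33 for Scarb1, 0.83 to 1.37 for Soat2 and 0.62 to 0.90 for Abcg1. The part of small intestinal transcripts in these results was not tested.

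Levels of some cell type markers also differed between diets in the same cecum libraries. The counts of markers stand beside 11.3% of all genes tested called as higher and 13.9% as lower. Goblet cell markers summed to 4658 to 5682 CPM in arsenic cecum and 6392 to 7441 CPM in control cecum, and 3 of 6 were lower. Of 12 enterocyte markers 5 were lower, and their sum was 21553 to 25883 CPM on arsenic and 25554 to 28153 CPM on control feed. Large intestine markers were lower for 5 of 7 tested (sum 31517 to 37690 CPM on arsenic and 38182 to 46678 CPM on control feed). These goblet and large intestine sums did not overlap between diets, and the enterocyte sums overlapped slightly. Of 10 macrophage markers 1 was lower, with sums of 134.2 to 160.2 CPM on arsenic and 127.3 to 171.8 CPM on control feed. Some markers of cells outside the epithelium were higher. Endothelial markers summed to 64.0 to 74.4 CPM in arsenic cecum and 50.4 to 55.9 CPM in control cecum, without overlap, and 2 of 6 were higher. Smooth muscle markers were higher for 3 of 8 (sum 3189 to 5216 CPM on arsenic and 2777 to 3761 CPM on control feed) and fibroblast markers for 3 of 7 (573.9 to 663.5 CPM and 467.5 to 651.8 CPM). Of 7 T cell markers 4 were higher, with sums of 20.1 to 38.7 CPM on arsenic and 16.4 to 24.6 CPM on control feed. The 8 B cell markers summed to 10.2 to 209.7 CPM on arsenic and 2.82 to 43.9 CPM on control feed, and none was called. Apart from the endothelial sums, these sums overlapped between diets. The part of cell makeup in the changes of Soat1, Scarb1, Nr1h3, Abca1, Abcg1 and Soat2 was not tested.

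In the ileum, where the absorptive genes are high, none of the 10 genes passed the edgeR test on arsenic feed, where 7.30% of 16305 genes were called. At an unadjusted p under 0.05 there were 2, Abca1 and Soat1, and DESeq2 called 0. Abca1 had 60.8, 119.9, 47.5, 65.3 and 150.7 CPM in arsenic ileum libraries 11 to 15, against 163.2, 160.4, 95.2 and 170.2 CPM in control ileum libraries 1, 2, 3 and 5. The arsenic group split into 3 libraries below all controls and 2 within their range, and the log2 change was -0.78 ± 0.34 (edgeR adjusted p = 0.188). Soat1 averaged 14.7 ± 2.1 CPM in arsenic ileum (n = 5) and 18.6 ± 3.0 CPM in control ileum (n = 4). Its log2 change was -0.37 ± 0.15 (edgeR adjusted p = 0.149). The other 8 genes had ileal log2 changes of -0.34 (Abcg5) to 0.35 (Scarb1), with Nr1h3 at 0.10 ± 0.10 and Nr1h2 at 0.14 ± 0.13.

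The ileal absorptive genes had wider ranges in the arsenic group than in the control group, a difference in spread that was not tested. Npc1l1 had 469.3, 981.9, 562.3, 737.4 and 1793 CPM in arsenic ileum libraries 11 to 15, against 1166, 852, 973 and 924 CPM in control ileum libraries 1, 2, 3 and 5. Abcg5 ran from 157.4 to 521.3 CPM on arsenic and from 285.9 to 376.3 CPM on control feed, Abcg8 from 110.0 to 361.2 CPM and from 202.7 to 241.8 CPM, and Soat2 from 162.4 to 434.9 CPM and from 232.4 to 279.3 CPM. For all 4 genes library 15 was the highest and library 11 the lowest of the arsenic group, and the control group lay between them. Markers of position along the small intestine moved with this spread. Lct, the lactase of the upper small intestine, was 139.8, 1335, 66.8, 690.7 and 3119 CPM in arsenic ileum libraries 11 to 15, against 1162, 572.6, 273.1 and 370.4 CPM in control ileum libraries 1, 2, 3 and 5, and Fabp6 was 3879, 982.1, 4180, 6.13 and 1.33 CPM in the same arsenic libraries. Without arsenic libraries 14 and 15 the adjusted p-values of the 10 genes still missed the threshold. The sizes of the ileal log2 changes did depend on the fit. Over 16 alternative fits they ran from -1.01 to -0.62 for Abca1 (main fit -0.78) and from -0.67 to -0.20 for Abcg5 (-0.34). They ran from -0.55 to -0.08 for Abcg8 (-0.23), -0.55 to 0.01 for Npc1l1 (-0.15) and -0.25 to 0.13 for Soat2 (-0.00). The part of sampling position in the spread was not tested.

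In the colon, none of the 10 genes passed the edgeR test, where 0.649% of 16492 genes were called, and 0 had an unadjusted p under 0.05 or were called by DESeq2. Soat2 had the largest log2 change, 0.79 ± 0.40 (edgeR adjusted p = 0.414), with 5.71, 2.92, 2.81 and 3.63 CPM in arsenic colon libraries 11, 12, 13 and 15, against 1.64, 2.29, 0.793, 4.16 and 2.05 CPM in control colon libraries 1 to 5. The groups overlapped through control library 4. Soat1 had 67.6, 27.9, 56.1 and 43.3 CPM in the same arsenic colon libraries, against 27.8, 45.2, 84.7, 90.3 and 44.1 CPM in control colon libraries 1 to 5. The arsenic values lay wholly inside the control range, and the log2 change was -0.26 ± 0.38 (edgeR adjusted p = 0.835). The other 8 genes had colon log2 changes of -0.32 (Abcg1) to 0.35 (Abcg8), among them Nr1h3 at 0.20 ± 0.11 and Scarb1 at 0.21 ± 0.12.

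Soat1 in the colon ran with several goblet cell markers across libraries of both diets. The sum of 6 goblet cell markers was 25655, 11647, 20982 and 14686 CPM in arsenic colon libraries 11, 12, 13 and 15, against 14267, 19026, 32695, 36522 and 17018 CPM in control colon libraries 1 to 5. Over the 9 colon libraries, which share both diets, the Pearson r of log2 CPM between Soat1 and this sum was 0.97. It was 0.98 with Clca1, 0.98 with Fcgbp and 0.83 with Tff3, but 0.42 with Agr2, -0.07 with Spdef and -0.16 with Muc2, the main mucin. Thus the relation held for some goblet cell genes and not for others, and its basis was not tested. Without arsenic library 11 and control libraries 3 and 4, the log2 change of Soat1 turned to 0.12 ± 0.28. Those libraries had the highest Soat1 levels and the highest goblet cell sums of the 9, and were chosen after seeing the data. That fit therefore does not test the part of goblet cells in the change.

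**Figure D4:**
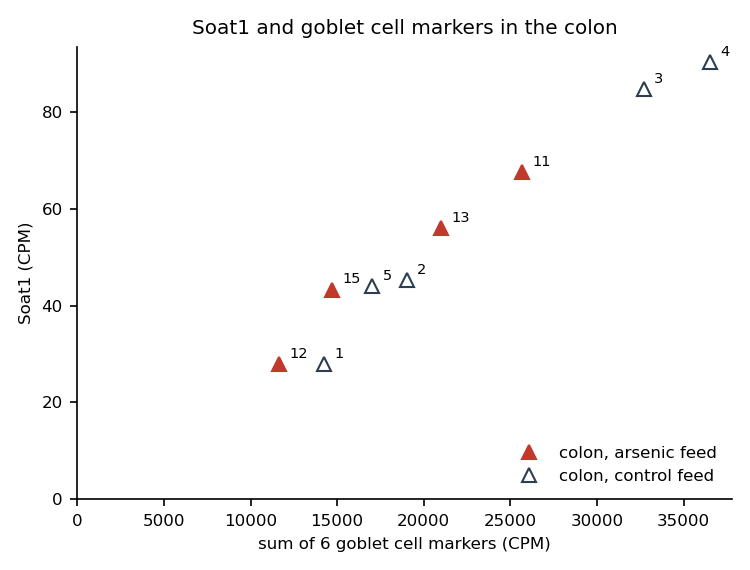
Soat1 (CPM, vertical) against the summed level of 6 goblet cell markers (CPM, horizontal) in 9 colon libraries, labelled by library number, with filled red triangles for arsenic feed and open triangles for control feed. Soat1 runs from 27.8 CPM in control library 1 and 27.9 CPM in arsenic library 12 up to 90.3 CPM in control library 4, and the diets intermingle.

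Whether the arsenic effect differed between regions was tested as an interaction over all 27 libraries. Abca1 and Scarb1 passed for cecum minus ileum, so 2 of 10 genes were called where 11.4% of 17763 genes were. The difference of the log2 changes was 1.26 ± 0.37 for Abca1 (edgeR adjusted p = 0.0295), with group means of 19.6 CPM in arsenic cecum and 13.6 CPM in control cecum, and 88.9 CPM in arsenic ileum and 147.3 CPM in control ileum. For Scarb1 it was -0.89 ± 0.28 (edgeR adjusted p = 0.0415), with means of 12.8 CPM in arsenic cecum and 18.1 CPM in control cecum, and 9.10 CPM in arsenic ileum and 6.97 CPM in control ileum. The Abca1 call was lost without any one of ileum arsenic library 14, ileum control libraries 1, 2 or 5 and cecum control libraries 1 or 5 (adjusted p = 0.0505 to 0.0662), and with no filter. The Scarb1 call was lost in most fits that left out 1 ileum or cecum library (adjusted p up to 0.136) as well as without colon control library 5, with RLE or upper-quartile scaling, with no filter and with the replicate block. Without the 3 cecum libraries highest in Sis (arsenic 12 and 14, control 4) both calls were lost (adjusted p = 0.0935 for Abca1 and 0.117 for Scarb1). For colon minus ileum 0 of 10 genes passed (0 at an unadjusted p under 0.05, 0 with DESeq2), where 2.25% of all genes did. For colon minus cecum 0 of 10 passed (4 at an unadjusted p under 0.05, 0 with DESeq2), where edgeR called 0% of all genes, 1294 genes had an unadjusted p under 0.05 and DESeq2 called 25.

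The effect averaged over the 3 regions was called for 3 of 10 genes, where 19.7% of all genes were. Nr1h3 was higher (log2 change 0.24 ± 0.06, edgeR adjusted p = 0.00356), with changes of 0.20 in the colon, 0.43 in the cecum and 0.10 in the ileum. Soat1 was lower, with an average log2 change of -0.54 ± 0.15 (edgeR adjusted p = 0.0128) and changes of -0.26, -0.97 and -0.37 in the same regions. Soat2 was higher by 0.66 ± 0.22 (edgeR adjusted p = 0.0351), a call that was lost without any one of 7 libraries (adjusted p = 0.0502 to 0.0775), with no filter (0.0861) and without either set of libraries left out together in the ileum (0.0652) or cecum (0.114). It was also lost with the replicate block (limma adjusted p = 0.111), a fit in which the tool changed as well. The change of Soat2 in the ileum was -0.00 ± 0.25.

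The wider network was read from gene lists. Several genes that SREBP2 switches on when sterols run low rose in each region, a pattern already known in these data when the list was chosen. The counts below stand beside called shares of all genes of 0.649% in the colon, 25.2% in the cecum (11.3% as higher and 13.9% as lower) and 7.30% in the ileum. Of 13 SREBP2 genes (Srebf2 and its targets), 6 were higher and none lower in the colon (median log2 change 0.83), 10 and none in the cecum (0.56) and 10 and none in the ileum (1.18), beside medians of -0.01, 0.02 and -0.00 over all genes. Mvd, the mevalonate diphosphate decarboxylase gene, averaged 42.5 CPM in arsenic colon and 21.7 CPM in control colon, a log2 change of 0.97 ± 0.14 (edgeR adjusted p = 0.019) whose call was lost in 7 of 16 alternative fits, 6 of them without 1 library (arsenic 11, 13 or 15 or control 2, 3 or 4, adjusted p = 0.0568 to 0.0719). Lss, the lanosterol synthase gene, averaged 71.4 CPM in arsenic cecum and 40.3 CPM in control cecum (0.86 ± 0.10, edgeR adjusted p = 5.4e-05). Mvk, the mevalonate kinase gene, averaged 43.6 CPM in arsenic ileum and 14.6 CPM in control ileum (1.54 ± 0.18, edgeR adjusted p = 0.00357).

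Of 11 other LXR target genes, 0 passed in the colon and 0 in the ileum (edgeR), and in the cecum 3 were higher and 2 lower (median 0.04). With so few genes called in the colon and ileum as a whole, a count of 0 there is near the share of all genes. Mylip, a ubiquitin ligase gene, averaged 23.4 CPM in arsenic cecum and 14.9 CPM in control cecum (0.69 ± 0.13, edgeR adjusted p = 0.00146). Arl4c, a small GTPase gene, averaged 4.19 CPM in arsenic cecum and 2.49 CPM in control cecum (0.79 ± 0.20, edgeR adjusted p = 0.0116). Lpcat3, a phospholipid remodelling enzyme gene, was lower at 104.0 CPM in arsenic cecum, against 128.1 CPM in control cecum (-0.26 ± 0.06, edgeR adjusted p = 0.00669). Of the partners and coregulators of LXR, 0 of 12 passed in the colon, and 5 of 11 were lower and 0 higher in the cecum, among them the corepressor gene Ncor1 (-0.37 ± 0.06) and the coactivator genes Ncoa3 (-0.41 ± 0.07) and Ncoa1 (-0.34 ± 0.07). The RXR gene Rxra averaged 204.7 CPM in arsenic ileum and 114.9 CPM in control ileum (0.79 ± 0.14, edgeR adjusted p = 0.0128), and there Tbl1xr1, a corepressor subunit gene, was lower (-0.53 ± 0.10, edgeR adjusted p = 0.0163).

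**Figure D5:**
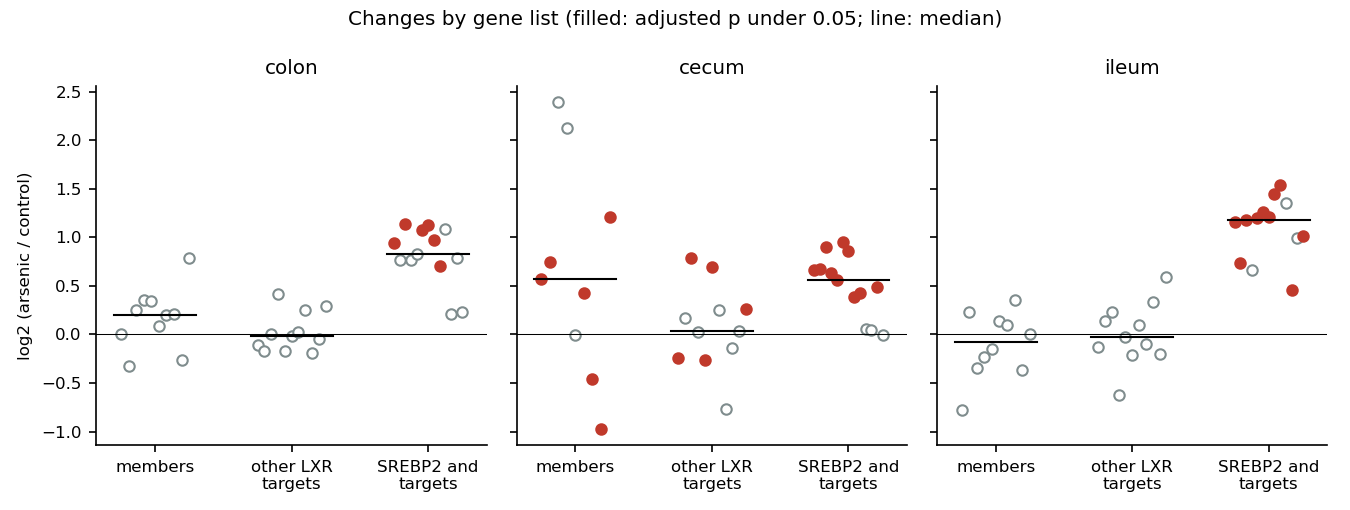
Log2 change on arsenic over control feed of the 10 genes (members), 11 other LXR target genes and 13 SREBP2 genes in colon, cecum and ileum, with filled red points past the test and a line at each median. The SREBP2 points lie at -0.01 or higher in each region (median 0.83, 0.56 and 1.18), whereas members and other LXR targets fall on both sides.

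Among genes of oxysterol formation and sterol turnover, Cyp27a1, which makes an oxysterol, rose in the cecum (0.31 ± 0.09, edgeR adjusted p = 0.0222), and Ebp, a sterol isomerase gene, fell there (-0.20 ± 0.07, edgeR adjusted p = 0.035). Of the genes of this list tested, 2 of 5 were higher and 1 lower in the cecum, and 1 of 7 was higher in the colon. Of 20 genes of intracellular cholesterol movement, 3 were higher and 3 lower in the cecum, 1 and 1 in the ileum, and none in the colon, each near the share of all genes. Stard4, a sterol carrier gene, averaged 252.7 CPM in arsenic cecum and 165.6 CPM in control cecum (0.65 ± 0.07, edgeR adjusted p = 3.41e-05). Of the lipoprotein genes, Apob rose in the cecum (0.55 ± 0.12, edgeR adjusted p = 0.00681), and Apobec1, which edits the Apob transcript, fell both there (-0.67 ± 0.14, edgeR adjusted p = 0.00782) and in the ileum (-0.64 ± 0.13, edgeR adjusted p = 0.022). Of the transcription factors known at these promoters, 3 of 9 were lower in the cecum, and Hnf4a averaged 1116 CPM in arsenic cecum and 1613 CPM in control cecum (-0.49 ± 0.07, edgeR adjusted p = 0.00023). None of these factors passed in the colon or the ileum. In the fit of all 27 libraries the cecum calls of Lpcat3, Cyp27a1, Ebp and Apob were lost (adjusted p = 0.123, 0.633, 0.145 and 0.243 in that order). The call of Ebp was lost in 9 of 16 fits, 6 of them without 1 library (arsenic 11, 12 or 13 or control 1, 4 or 5, adjusted p = 0.0591 to 0.0929), and that of Cyp27a1 also without arsenic library 14 or control library 1 or 5 (adjusted p = 0.0513 to 0.0696). In the ileum the call of Apobec1 was lost in the fit of all 27 libraries and without arsenic library 14 or control library 1, 2 or 3 (adjusted p = 0.0508 to 0.0863), that of Tbl1xr1 without any single control library (0.0519 to 0.0743) and that of Rxra without control library 2 (0.0646). The Apobec1 call in the cecum was lost without arsenic libraries 12 and 14 and control library 4 (adjusted p = 0.0903).

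The promoter of Abca1 is shown because Abca1 was the LXR target called for a different arsenic effect in cecum and ileum, a call lost in some fits. Its 250 bases before the start (RefSeq, GRCm38.p6, chr4:53159896-53160145, minus strand) held 1 match, in capitals, to the LXR element DR4 (AGGTCA repeated after 4 bases of any kind) with up to 3 mismatches on either strand, beginning 67 bases before the start.
Abca1: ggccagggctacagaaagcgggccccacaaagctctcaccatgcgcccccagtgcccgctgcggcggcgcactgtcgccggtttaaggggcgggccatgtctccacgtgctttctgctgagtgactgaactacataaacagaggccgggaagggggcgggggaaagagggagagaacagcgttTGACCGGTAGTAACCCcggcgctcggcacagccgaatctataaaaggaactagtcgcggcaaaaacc
Such a match is common, in 18.5% of the 32851 windows of 250 bases, and it was present in 1 of the 9 windows of the 7 members with a sequence in the RefSeq table.

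Genes whose levels were most like 3 of the members were found among 13284 genes, as the Pearson r over 27 libraries of log2 CPM less its regional mean. Npc1l1 was most like Sis (r = 0.93), Cyp3a25 (0.91) and Mttp (0.90). Abcg5 was most like its partner Abcg8 (r = 0.93), and the brush border gene Slc6a19 was also among the nearest (0.82). Abca1 was most like Agmo (r = 0.77), Tymp (0.76) and Apob (0.75). The libraries share depth, scaling and diet groups, so these r values describe the libraries only.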

How the data were processed

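Poly-A RNA of 27 libraries was analysed from a deposited table of raw read counts per Ensembl gene; all 27 columns were used. The submitters' processing notes list HISAT2 (2.1.0), SAMtools, HTSeq (0.6.0) and DESeq2 (1.6.3). The sources used here do not give the genome build, annotation or strand setting. Reads of overlapping or antisense genes may therefore be shared. Symbols were joined by Ensembl ID for 52403 of 52550 genes, and exon lengths came from GENCODE.

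The counts were tested in R 4.3.3 with edgeR 4.0.16 (filterByExpr, minimum count 10 and total 15; TMM scaling; robust quasi-likelihood F-tests; Benjamini-Hochberg adjustment over all genes tested; calls at adjusted p under 0.05). Diets were compared within each region, regions within 13 control libraries, and interactions and the averaged effect over 27 libraries. SE is the log2 change divided by the square root of F. The test was tried on simulated data. Alternatives were DESeq2 1.42.0, upper-quartile and RLE scaling, other filters, a fit of all 27 libraries, a replicate block (limma 3.58.1 and statmod 1.5.0 for the averaged effect), each library left out and sets of libraries left out. P-values measure the spread between libraries, which the labels do not tie to separate mice.

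The 10 genes and the lists were chosen with earlier results of these data known, and the SREBP2 result repeats a known one. Besides the 10 genes, the text names up to 3 called genes per list and diet comparison with the smallest p, and the 3 genes most like Abca1, Abcg5 and Npc1l1; some of these are not reported here. Gata4, Gata6 and single markers are named beside results. Sequences are from RefSeq; 7 of the 10 genes had one. Figures were drawn with matplotlib 3.10.9.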

Additional observations from a re-analysis of the deposited data

Results flagged for a closer look

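In 4 of 60 combinations of gene and group, 1 library stood apart from the rest of its group by a gap that is large for the group's range, where chance does so in about 1 group in 20. Abca1 was 95.2 CPM in control ileum library 3, against 160.4 CPM in the next lowest library. Abcg5 was 7.48 CPM in arsenic cecum library 14, against 1.89 CPM in the next highest. Soat2 was 6.12 CPM in the same library, against 3.08 CPM in the next highest. Abcg8 was 0.705 CPM in control cecum library 4, against 0.129 CPM in the next highest. Arsenic cecum library 14 and control cecum library 4 also had the highest Sis of their groups, at 57.5 and 9.03 CPM.

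By the interaction test of the whole table, a different arsenic effect in cecum and ileum was called for Abca1 and Scarb1. The difference of log2 changes was 1.26 for Abca1 (edgeR adjusted p = 0.0295) and -0.89 for Scarb1 (edgeR adjusted p = 0.0415). The call was lost in 8 of 36 alternative fits for Abca1 and in 20 of 36 for Scarb1.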

How the results depend on the processing

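Of 2499 alternative values of the 10 genes, 2410 kept their direction and call, and 87 of 99 results turned in no fit. Genes called on arsenic were 2105 with DESeq2, 2889 with all 27 libraries in 1 fit and 673 without libraries 14 and 15 in the ileum, and 656, 493 and 4 (without arsenic 11 and control 3 and 4, chosen after seeing the data) in the colon. In the cecum 2021 genes and 2 members were called in the fit of all 27 libraries, and 2467 and 2 without arsenic 12 and 14 and control 4, also chosen after seeing the data. For cecum minus ileum, members called were 1 with RLE, upper-quartile scaling, the replicate block or without the 3 colon libraries, and 0 with no filter or without the 3 cecum libraries (1178 genes). For colon minus ileum, genes called were 252 with RLE, 704 with DESeq2, 113 with no filter, 124 without ileum arsenic 14 and 15 and 133 without the 3 cecum libraries. For colon minus cecum they were 25 with DESeq2, 2 with the replicate block, 9 without ileum arsenic 14 and 15 and 2 without the 3 colon libraries.

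Leaving out 1 library at a time, genes called were 121 to 1583 in the ileum, 3070 to 4313 in the cecum (4 to 6 members), 6 to 351 in the colon, 1147 to 2642 for cecum minus ileum (0 to 2 members), 18 to 965 for colon minus ileum, 0 to 2 for colon minus cecum and 3092 to 4101 averaged (2 to 3 members). For colon over cecum, 4 to 7 members were called. Log2 values then ranged through 0 for Npc1l1 (-0.52 to 0.01) and Abcg1 (-0.11 to 0.41) in the ileum, Abcg5 (-0.02 to 0.56), Npc1l1 (-0.79 to 1.20) and Abca1 (-0.17 to 0.15) in the colon, Soat1 (-0.33 to 0.06) for colon over cecum, Nr1h2 (-0.16 to 0.03), Npc1l1 (-0.69 to 1.31) and Soat1 (-0.13 to 0.28) for colon minus ileum, and Scarb1 averaged (-0.01 to 0.07). Direction also turned for Nr1h2 in the cecum (0.04 with upper-quartile scaling, 0.01 without the 3 cecum libraries), for Abca1 (-0.06), Npc1l1 (-0.32) and Soat1 (0.12) in the colon, Npc1l1 for colon minus ileum (-0.18) and Scarb1 averaged (-0.02) without the 3 colon libraries, and for Nr1h2 for colon minus ileum (0.01) without ileum arsenic 14 and 15. The causes were not tested.

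Deviations of libraries with the same replicate number in different regions correlated at -0.108 to 0.248 (median 0.12, 13 of 24 pairs over 0.1). The median was -0.028 for other numbers, and the own number correlated best in 29 of 48 cases. A low r does not show that libraries came from different mice. Arsenic numbers 13 and 15 exceeded 0.1 in all 3 region pairs (0.13 to 0.248 and 0.125 to 0.16). This is a hint from the data, not from the labels, that some numbers mark 1 mouse. With the replicate block in edgeR, Scarb1 lost its call for cecum minus ileum (-0.86, adjusted p = 0.0674) and Soat2 gained one for colon over cecum (0.70, adjusted p = 0.0392). Soat2 lost its averaged call (0.66, limma adjusted p = 0.111) in a block fit where the tool changed too. The parts of tool and block in that loss cannot be told apart. Upper-quartile scaling also called Nr1h2 for colon over cecum (0.19, adjusted p = 0.048) and cecum over ileum (-0.26, adjusted p = 0.00952). Abcg8 with 0 to 125 reads per cecum library was too low to test there.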
